A study of Mus musculus with 13 samples.

Results

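Pax6, Sox1, Nes, Zic1, Neurog2 and Hes5 were followed as early neural genes in mouse embryonic stem cells. They were picked by gene symbol, 6 of the 24470 genes in the count table, because Pax6 had been seen in only 1 of 2 experiments. The difference between the experiments therefore chose them. It is described for these 6 genes without a test.

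The cells were E14, a mouse embryonic stem cell line of 129/Ola origin. All were kept on serum and leukemia inhibitory factor, with no genotype or treatment that differed between groups. Open chromatin and mRNA were read from the same cells with a low-input protocol, at 10000 and 20000 cells in experiment 1 and at 5000, 10000 and 20000 cells in experiment 2, run on another day. Omni-ATAC, an established protocol for open chromatin, was run on 5000, 10000 and 50000 cells, with no mRNA and 1 library each. The 5 mRNA libraries held 13727122 to 20426252 counts, and the 8 ATAC lists held 9097 to 95457 peaks. Nothing in the labels says that the libraries of 1 experiment came from separate cultures, so p-values measure only the spread between these libraries.

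During neural induction, pluripotent cells leave the stem cell state and form neuroectoderm, which becomes the neural plate and then neural progenitors. Sox1 is among the first genes specific to neuroectoderm, while Pax6 and Zic1 encode transcription factors that pattern the neural plate and the progenitors that follow. Nes encodes nestin, an intermediate filament protein of progenitors. Hes5 encodes a repressor switched on by Notch signalling that holds progenitors back from differentiating, and Neurog2 encodes a proneural factor that drives them to become neurons. Serum and leukemia inhibitory factor are used to keep stem cells from differentiating.

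Pax6 counts separated the experiments. In experiment 1 there were 2 counts in the library from 10000 cells (0.146 CPM, counts scaled to the total of the library) and 0 counts in the one from 20000 cells. Experiment 2 gave 93 counts from 5000 cells (5.55 CPM), 108 from 10000 cells (6.96 CPM) and 72 from 20000 cells (3.52 CPM). Both libraries of experiment 1 were under the level of 3 counts that a count of 0 allows (0.219 and 0.201 CPM), and all 3 of experiment 2 were above it. The 95% Wilson intervals, which cover counting error only, ended at 0.531 CPM at the highest in experiment 1 and began at 2.80 CPM at the lowest in experiment 2. Summed over the libraries from 10000 and 20000 cells, 180 counts stood against 2, a ratio of rates of 71.8. Its 95% counting interval, 19.6 to 598, describes the precision of that ratio and is no test, since the difference chose the gene. The fitted log2 difference was 6.08 ± 0.83 (SE), a value that depends on the prior count where a group is close to 0, and 9.47 without experiment 1 from 10000 cells. Within experiment 2 the level from 20000 cells was the lowest of the 3, each from a single library.

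**Figure D1:**
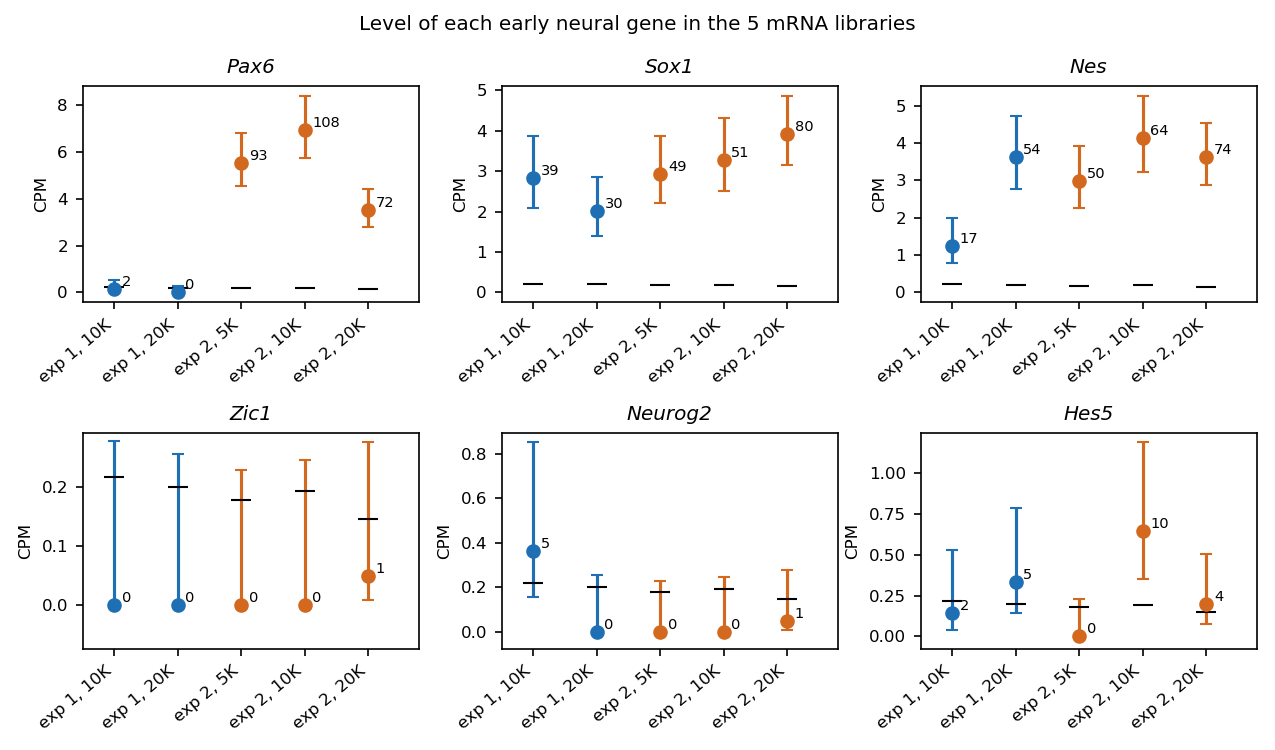
Level in CPM (counts scaled to the library total, y axis) of each of the 6 genes in the 5 mRNA libraries (x axis; exp, experiment; K, 1000 cells), each panel with its own scale. Points are libraries, blue for experiment 1 and orange for experiment 2, with the count beside them; bars are 95% Wilson intervals and black dashes the level of 3 counts. Pax6 runs from 3.52 to 6.96 CPM in experiment 2 and is at 0.146 and 0 in experiment 1.

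Sox1 and Nes were read in every library. Sox1 had 39 and 30 counts in experiment 1 (2.84 and 2.01 CPM, from 10000 and 20000 cells). It had 49, 51 and 80 counts in experiment 2 (2.92, 3.29 and 3.92 CPM, from 5000, 10000 and 20000 cells). The 3 libraries of experiment 2 lay above both of experiment 1, by a margin of 2.84 to 2.92 CPM that is far smaller than the intervals (2.08 to 3.88 and 2.21 to 3.86 CPM). The log2 difference for Sox1 was 0.57 ± 0.47 (SE), and 0.36 without experiment 1 from 20000 cells.

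The 692 tested genes of chromosome 8, where Sox1 lies, had a median log2 difference of 0.46 between experiments, and 36.8% of them had a difference at least as large as that of Sox1. Among the 409 of chromosome 8 with a mean of at least 10 CPM, 91.9% were higher in experiment 2. The medians were -0.01 on chromosome 2, which holds Pax6, and 0.07 on chromosome 3, which holds Nes. The part of this chromosome-wide difference in the Sox1 value was not tested.

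Nes had 17 and 54 counts in experiment 1 (1.24 and 3.61 CPM) and 50, 64 and 74 in experiment 2 (2.98, 4.13 and 3.62 CPM). The groups overlapped: the library from 20000 cells of experiment 1 lay above the one from 5000 cells of experiment 2. A single library, experiment 1 from 10000 cells, stood low. The log2 difference of 0.67 ± 0.49 (SE) was 0.10 without it and 1.66 without experiment 1 from 20000 cells.

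Zic1, Neurog2 and Hes5 were at or close to the limit of detection. Zic1 had 1 count in all, in experiment 2 from 20000 cells, and counts of 0 in the other 4 libraries, where the level of 3 counts was 0.179 to 0.219 CPM and the 95% Wilson intervals ended at 0.229 to 0.280 CPM. Neurog2 had 5 counts in experiment 1 from 10000 cells (0.364 CPM, interval 0.156 to 0.853), 1 count in experiment 2 from 20000 cells and 0 in the other libraries. Hes5 had 2 and 5 counts in experiment 1 (0.146 and 0.335 CPM) and 0, 10 and 4 counts in experiment 2 (0, 0.645 and 0.196 CPM). For Hes5 the libraries of the experiments overlapped, and the ratio of rates from 10000 and 20000 cells was 1.60 with an interval of 0.603 to 4.67.

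Pax6, Sox1 and Nes passed the filter on low counts, and Pax6 did so only through experiment 2, so that it had to differ. In the fit across all 12523 genes that passed, 12.5% were called between experiments at an adjusted p under 0.05, 5.75% higher and 6.76% lower in experiment 2. Of 12857 genes that passed a filter over all 5 libraries, 17.8% had every library of experiment 2 above both of experiment 1, as Pax6 and Sox1 did. Nothing is read from these counts, since the same comparison chose the genes. Levels are not ranked between the 6 genes, because the table gives no exonic length.

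Cell number was not used to choose the genes and could be tested. Between 20000 and 10000 cells, with 2 libraries each, 0 of 12523 genes were called by edgeR, a share of 0%. At an unadjusted p under 0.05 there were 101, DESeq2 also called 0, and 4 genes, all lower, were called with the experiment as a block; none of the 6 was among them. The log2 difference was -1.01 ± 1.75 (SE) for Pax6, -0.06 ± 0.53 for Sox1 and 0.40 ± 0.64 for Nes (edgeR's quasi-likelihood test, adjusted p = 0.999 for each). With the experiment as a block the values were -1.19 ± 0.69 (SE) for Pax6, -0.12 ± 0.50 for Sox1 and 0.57 ± 0.51 for Nes (edgeR, adjusted p = 0.998 for each). In experiment 2 Pax6 had 3.52 CPM at 20000 and 6.96 CPM at 10000 cells, while in experiment 1 both libraries were under the level of 3 counts. Without the block, leaving out a library also unbalances the experiments between cell numbers. The sign of that value turned for Pax6 without experiment 2 from 10000 cells (3.56), for Sox1 without that library (0.07) or experiment 1 from 20000 cells (0.34), and for Nes without experiment 1 from 10000 cells (-0.20). On simulated counts the same test called 0% of 2-fold and 58.2% of 4-fold changes, so differences of that size in the 3 genes could have been missed.

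Reads of overlapping genes could be mixed with those of Pax6 and Sox1, since the sources used here do not say whether counting used strand. Pax6os1, an antisense gene that shares 1435 bp with Pax6, had 7 counts in experiment 1 from 10000 cells and 0 in the other 4 libraries. Elp4, which overlaps the far end of Pax6 by 1091 bp on the other strand, had 38 to 101 counts in the 5 libraries. Its 77 and 38 counts in experiment 1 and 67, 80 and 101 in experiment 2 overlapped. The part of such reads in the Pax6 counts was not tested. Sox1 lies whole inside Sox1ot, a long noncoding gene on the same strand, which had 0 and 4 counts in experiment 1 and 0, 14 and 8 in experiment 2.

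The other genes of the early neural programme were taken from 6 lists, 123 genes in all, of which 57 were tested. Of these, 11 rose and 3 fell in experiment 2, 24.6% against 12.5% of all genes tested, and their median log2 difference was 0.19 against 0.00 for all genes. By list, 16.7% of 12 neural plate factors, 50% of 2 proneural factors and 31.6% of 19 Notch genes were called. It was 33.3% of 6 progenitor markers, 21.4% of 14 neuronal genes and 0% of 4 crest and ectoderm genes. Over the 59 that passed a filter on 5 libraries, 25.4% had all of experiment 2 above experiment 1, against 17.8% of all genes, and 18.6% had all of it below, against 23.4%. Those above include Sox21, Zic5, Map2 and Msx2, which entered the fit through experiment 2, and Hes3, at 0 CPM in experiment 1. Those below include Hesx1 and Syp, which entered through experiment 1, and Neurog3, at 0.392 to 0.477 CPM in experiment 2. Of the 57, 9 reached the level of the filter (0.657 CPM) in both fitted libraries of experiment 2 but not in both of experiment 1, with 1 of them, Zic2, called. The 9 were En2, Map2, Mib1, Msx2, Prom1, Rbfox3, Sox21, Zic2 and Zic5. For 3, Hesx1, Otx2 and Syp, it was the reverse, with 0 called. The medians here and by list include all of these genes, whose direction the filter favoured. The lists were written with earlier results of these data known. These are bulk libraries, in which a few cells of another type and a low level in every cell cannot be told apart.

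Among 32 transcription factors of the neural plate, 12 were tested, 2 rose, 0 fell and 10 did not pass the test, with a median log2 difference of 0.21. Zic2, a relative of Zic1, had 0.437 and 1.07 CPM in experiment 1 and 3.998 and 4.75 CPM in experiment 2 from 10000 and 20000 cells. It rose by 2.51 ± 0.57 (SE) on the log2 scale (edgeR, adjusted p = 0.0040), yet the library from 5000 cells, at 0.895 CPM, lay within the range of experiment 1. Zic2 reached the level of the filter in both libraries of experiment 2 and in 1 of experiment 1, so its entry into the test rested on experiment 2. Gbx2, which positions the midbrain and hindbrain boundary and is also active in stem cells, had 35.3 and 41.5 CPM in experiment 1 and 51.7 to 57.3 CPM in experiment 2. Its log2 difference was 0.51 ± 0.15 (SE; edgeR, adjusted p = 0.0300).

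Other factors of this list, picked after their values were seen, went either way without passing the test. Zic5 was at 0 and 0.201 CPM in experiment 1 and at 0.979 to 1.29 CPM in experiment 2, and Sox21, a SoxB factor of progenitors, was at 0 and 0.0669 CPM against 0.656 to 0.881 CPM. Both passed the filter on low counts only through experiment 2 and so had to be higher there. Hesx1, a factor of the anterior neural plate, was at 0.874 and 1.74 CPM in experiment 1 and at 0.119, 0.516 and 0.783 CPM in experiment 2 (log2 difference -0.99 ± 0.86, SE). Otx2, a factor of the forebrain and midbrain, was at 1.53 and 1.20 CPM against 1.25, 0.258 and 1.27 CPM (-0.80 ± 0.85). Hesx1 and Otx2 reached the level of the filter in both libraries of experiment 1 and in 1 of the fitted ones of experiment 2. Sox3, another SoxB factor expressed early in neuroectoderm, had the reverse order, 0.583 and 0.468 CPM in experiment 1 and 0 to 0.049 CPM in experiment 2, and was too low to be tested.

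Of 16 proneural factors and their partners, only Hes6 and Neurod1 were tested, and 6 of the 16 had 0 counts in every library, Neurog1 among them. Hes6, which promotes neuronal differentiation and antagonises other Hes factors, had 7.65 and 5.55 CPM in experiment 1 and 11.8 to 14.4 CPM in experiment 2. It rose by 0.97 ± 0.26 (SE) on the log2 scale (edgeR, adjusted p = 0.0159). Neurod1, a factor of differentiating neurons, had 1.31 and 1.61 CPM in experiment 1 and 0, 1.23 and 1.27 CPM in experiment 2, and did not pass the test.

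The Notch pathway, which acts upstream of Hes5, was split: 19 of 28 genes were tested, 3 rose, 3 fell and 13 did not pass the test. The median log2 difference was 0.04. Mfng, a glycosyltransferase that modifies Notch receptors, fell by 0.86 on the log2 scale, from 41.5 and 36.6 CPM to 20.6 to 23.9 CPM (edgeR, adjusted p = 0.0013). Dll3, a divergent ligand that acts inside the cell, fell from 11.3 and 11.4 CPM to 3.82 to 5.83 CPM (edgeR, adjusted p = 0.0085). Rbpj, the DNA-binding factor of the pathway, fell by 0.48 on the log2 scale (edgeR, adjusted p = 0.0289). The 3 that rose were Notch4, a receptor, by 1.07 (edgeR, adjusted p = 0.0469), Adam10, the protease that sheds the receptor's outer part, by 1.31 (adjusted p = 0.0342) and Maml1, a coactivator, by 1.14 on the log2 scale (adjusted p = 0.0118). Hes1, the other main target of Notch beside Hes5, had 41.8 and 46.0 CPM in experiment 1 and 38.2 to 42.4 CPM in experiment 2, and did not pass the test.

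Among 15 markers of neural progenitors, 6 were tested, 2 rose and 0 fell, with a median log2 difference of 0.81. That median includes Prom1, which reached the level of the filter in both fitted libraries only in experiment 2. Slc1a3, Msi2 and Hmga2, also tested, had log2 differences of 0.19, -0.01 and -0.18. Vim, which encodes the filament protein vimentin and is expressed in many cell types outside the nervous system, had 109 and 116 CPM in experiment 1 and 271, 297 and 317 CPM in experiment 2. It rose by 1.45 ± 0.12 (SE) on the log2 scale (edgeR, adjusted p = 9.49e-09). Ncam1, a neural cell adhesion molecule, rose by 1.42 ± 0.44 (SE; edgeR, adjusted p = 0.0324), though its 1.67 CPM from 5000 cells lay within the range of experiment 1. Fabp7 and Sox9, markers of radial glia and later progenitors, had 0 counts in all 5 libraries, and Msi2, an RNA-binding protein gene, had 16.2 to 21.3 CPM with overlapping groups.

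Among 20 neuronal genes, 14 were tested, 3 rose and 0 fell, with a median of 0.43. That median includes Map2 and Rbfox3, which reached the level of the filter in both fitted libraries only in experiment 2. For Syp this held only in experiment 1. Gap43, a protein of growing axons, had 2.55 and 3.95 CPM in experiment 1 and 11.5, 12.4 and 12.3 CPM in experiment 2 (log2 difference 1.92 ± 0.30, SE; edgeR, adjusted p = 0.000108). Stmn3, a regulator of microtubules, had 9.69 and 10.1 against 19.6 to 24.2 CPM (1.15 ± 0.22; edgeR, adjusted p = 0.000722). Nefl, a neurofilament subunit, had 2.99 and 3.28 against 6.44 to 8.91 CPM (1.44 ± 0.33; edgeR, adjusted p = 0.0048). The most abundant genes of the list did not pass the test: Stmn2, at 122 to 158 CPM, and Mapt, at 31.1 to 46.0 CPM, both had negative log2 differences (-0.30 and -0.32). Dcx, a marker of migrating young neurons, and Myt1 had 0 counts in every library. The summed level of the list was 268 and 279 CPM in experiment 1 and 264 to 279 CPM in experiment 2.

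Of 12 genes of the neural crest and surface ectoderm, 4 were tested and 0 were called, with a median log2 difference of 0.62. That median includes Msx2, which reached the level of the filter in both fitted libraries only in experiment 2. Foxd3, a crest gene also active in stem cells, had 31.1 and 30.8 CPM in experiment 1 and 32.4 to 43.1 CPM in experiment 2. Tfap2c had 2.04 and 3.35 CPM against 4.13 to 6.32 CPM (log2 difference 0.95 ± 0.42, SE; edgeR, adjusted p = 0.144). Genes of the 6 lists called between 20000 and 10000 cells numbered 0.

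**Figure D2:**
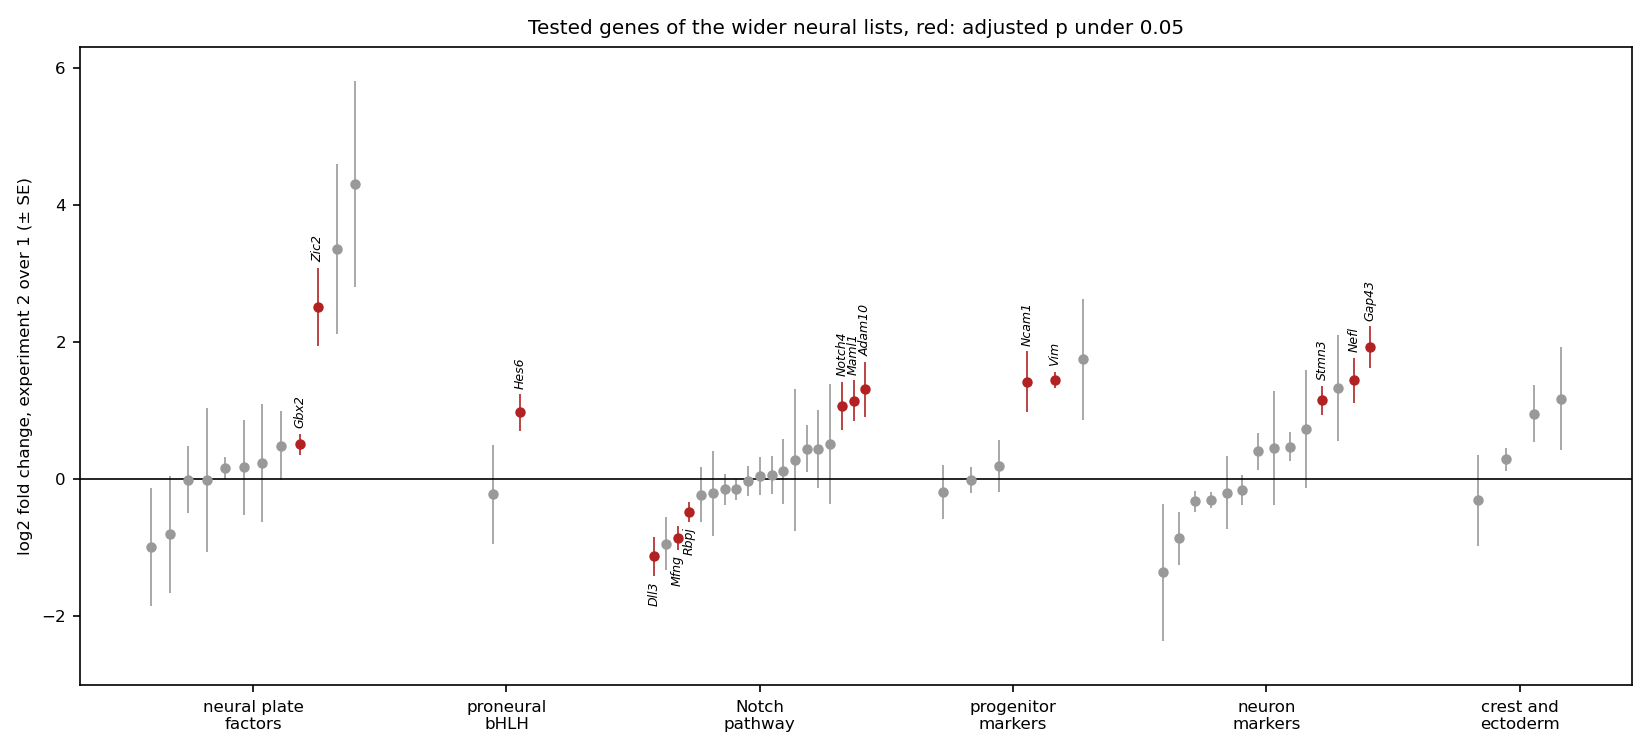
Log2 fold change of experiment 2 over experiment 1 (y axis, points, with SE as bars) for each of the 57 tested genes of the 6 neural lists (x axis), from the edgeR fit of the 4 libraries from 10000 and 20000 cells. The 14 red genes, named, had an adjusted p under 0.05, 11 of them above 0 and 3, all in the Notch pathway, below it.

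How far these calls rest on single libraries differed. Without experiment 2 from 10000 cells 6 of the lists' genes were called, and without experiment 2 from 20000 cells also 6. Gap43, Mfng, Stmn3 and Vim were called under every alternative run. In 4 of the 14 called genes, Zic2, Notch4, Adam10 and Ncam1, the library from 5000 cells of experiment 2, which was not in the fit, lay within or below the range of experiment 1. Pax6, Vim and Gap43 were high in that library.

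Markers of other cell types were read beside these values. Of all genes tested, 5.75% were called higher and 6.76% lower in experiment 2. The 6 pluripotency genes summed to 1009 and 1086 CPM in experiment 1 and 1151 to 1244 CPM in experiment 2, with 2 of 6, Klf4 and Zfp42, called higher and 0 lower. Zfp42 lies on chromosome 8, and its log2 difference of 0.38 was below the median of 0.46 of that chromosome. Pou5f1, which defines the stem cell state, had 151 to 233 CPM with overlapping groups. The 5 fibroblast genes summed to 32.1 and 35.3 CPM in experiment 1 and 9.01 to 10.4 CPM in experiment 2. That sum was mostly Thy1, which fell by 2.19 on the log2 scale (edgeR, adjusted p = 6.75e-08), while Col3a1 had 0 counts in all 5 libraries. Pdgfrb, another tested gene of the 5, had 0.728 and 0.535 CPM in experiment 1 against 0.477, 1.61 and 1.47 CPM in experiment 2 (log2 difference 1.28, edgeR adjusted p = 0.348). Col1a1, also tested, had 1.89 and 0.870 CPM against 0.119, 0.903 and 0.490 CPM (log2 difference -0.99, edgeR adjusted p = 0.522). Pdgfrb reached the level of the filter in both fitted libraries only in experiment 2, and Col1a1 only in experiment 1. The 8 genes of mesoderm, endoderm and trophectoderm summed to 5.02 and 5.17 CPM against 2.09 to 4.26 CPM, with 2 of 8 tested. Gata6, of the endoderm, was called lower (3.21 and 1.47 CPM against 0, 0 and 0.294 CPM) and had passed the filter only through experiment 1. Eomes, of the mesoderm and trophectoderm, was at 0.364 and 0.870 CPM against 0.656, 2.64 and 2.11 CPM and did not pass the test (log2 difference 1.92 ± 0.74, SE, edgeR adjusted p = 0.0928). Eomes reached the level of the filter in both fitted libraries only in experiment 2, so its entry into the test rested on experiment 2. The part of these genes in the values of the neural genes was not tested.

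The genes whose levels followed each gene most closely over the 5 libraries were named by Pearson's r of log2(CPM + 1), as a description of 5 points that share 2 experiments. For Pax6 these were Cklf, Arxes1, Sgk1, Scoc and Ndufb8, with r from 0.9965 to 0.9996, out of 302 genes of 12854 with r above 0.95. With a pseudocount of 0.1 or with Spearman's rho, 0 of these 5 stayed among the 5 closest. Cklf had 21.2 and 20.5 CPM in experiment 1 and 36.8, 38.4 and 32.2 CPM in experiment 2. For Sox1 they were Kank3, Clasp1, Naxd, Ptpn6 and Tmem134, and for Nes they were Ahr, Jph1, Serac1, Erg28 and Proser1. Ahr, like Nes, was low only in experiment 1 from 10000 cells, with 0.219 CPM against 1.31 to 2.06 CPM elsewhere. None of these 15 is a neural gene of the lists above. Between the members themselves r was 0.69 for Pax6 and Sox1, 0.54 for Pax6 and Nes, and 0.12 for Sox1 and Nes.

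Open chromatin was read at the starts of the 6 genes. The peak lists give intervals only, with no height, and their depth is unknown, so a gene without a peak is one where no interval was called. A peak within 1000 bp of the start was found in 16 of the 48 combinations of gene and list. Nes had one in all 8 lists, which 14.8% of all genes had. Sox1 had one in 3 lists, namely experiment 2 from 20000 cells and Omni-ATAC from 10000 and 50000 cells, and Hes5 in 2. By list, 1 of the 6 genes had such a peak in both lists of experiment 1 (31.1% and 37.4% of all genes) and in experiment 2 from 5000 and 10000 cells (31.1% and 40.5%), and 3 of 6 in experiment 2 from 20000 cells (50.3%). In Omni-ATAC it was 1 of 6 from 5000 cells (18.6%), 2 of 6 from 10000 (41.5%) and 6 of 6 from 50000 (61.1%). Pax6, Zic1 and Neurog2 had one only in the longest list, Omni-ATAC from 50000 cells, as did 7.61% of all genes; within 2500 bp, Neurog2 had one in 7 lists. No low-input list, of either experiment, held a peak at the Pax6 start, and 47.4% of all genes had none in any of the 5 low-input lists. Among 3319 genes averaging 1 to 5 CPM over the 5 libraries, as Pax6, Sox1 and Nes did, that share was 27.9%. Among 11688 genes under 0.5 CPM, the range of Zic1, Neurog2 and Hes5, it was 79.3%. The Pax6 average of 3.24 CPM mixes unlike groups, so 27.9% matches its level in neither experiment. Its experiment 1 mean (0.0728 CPM) falls in the class with 79.3%. Its mean over all 3 libraries of experiment 2 (5.35 CPM) falls among 8193 genes averaging 5 CPM or more. Of those, 10.6% lacked a promoter peak in every low-input list.

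The promoter sequences of Pax6, Sox1, Nes and Hes5 show where called intervals fell. Each is the 250 bases before the RefSeq start (GRCm38.p6, the build called mm10), on the gene's strand, with the bases inside 1 called peak per gene in capitals; wider peaks of other lists also cover lower-case bases of Sox1 and Nes. All 6 genes had an entry in the RefSeq table.

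Pax6, chr2:105668646-105668895, plus strand: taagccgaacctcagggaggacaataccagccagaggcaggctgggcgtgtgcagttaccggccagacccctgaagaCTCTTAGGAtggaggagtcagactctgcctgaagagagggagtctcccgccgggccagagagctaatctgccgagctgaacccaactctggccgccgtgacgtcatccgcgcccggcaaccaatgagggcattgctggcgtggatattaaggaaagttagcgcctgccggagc

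Sox1, chr8:12395269-12395518, plus strand: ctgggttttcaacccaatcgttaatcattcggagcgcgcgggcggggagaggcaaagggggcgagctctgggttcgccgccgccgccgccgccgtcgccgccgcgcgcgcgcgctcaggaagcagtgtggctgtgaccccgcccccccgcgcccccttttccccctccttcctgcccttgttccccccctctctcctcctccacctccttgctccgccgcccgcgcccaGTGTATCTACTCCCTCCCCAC

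Nes, chr3:87970843-87971092, plus strand: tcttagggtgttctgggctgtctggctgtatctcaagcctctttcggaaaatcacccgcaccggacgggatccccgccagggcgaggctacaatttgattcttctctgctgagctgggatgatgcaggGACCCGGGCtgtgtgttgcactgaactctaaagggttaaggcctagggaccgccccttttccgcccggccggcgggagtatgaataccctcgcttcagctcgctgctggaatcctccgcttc

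Hes5, chr4:154960673-154960922, plus strand: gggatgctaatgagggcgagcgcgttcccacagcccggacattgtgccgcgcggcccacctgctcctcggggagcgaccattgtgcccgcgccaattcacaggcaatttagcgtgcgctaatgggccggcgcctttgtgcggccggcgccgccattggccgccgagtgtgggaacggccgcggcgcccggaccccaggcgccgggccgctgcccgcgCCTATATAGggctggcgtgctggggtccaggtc

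The capitals of Nes are 9 bases, at positions -122 to -114 from the start (-1 is the base before it), and 5 of the 8 lists held exactly this interval. The other 3 lists held wider Nes peaks, at -122 to -28 in experiment 1 from 20000 cells, at -122 to -35 in experiment 2 from 20000 cells and at -134 to 255 in Omni-ATAC from 50000 cells. The capitals of Hes5 are also 9 bases, at -33 to -25, and the same 9 bases were called in experiment 2 from 20000 cells and in Omni-ATAC from 50000 cells. The 9 capitals of Pax6, at -173 to -165, came from Omni-ATAC from 50000 cells. The Sox1 peak shown, from experiment 2 and 20000 cells, was 116 bp wide, began at -21 and ran on into the gene. The Sox1 peak of Omni-ATAC from 10000 cells began at -23, and that from 50000 cells, at -359 to 94, covered the whole printed sequence. Intervals of 9 bp, the shortest, made up 24.4% to 59.2% of a list. At a minimum of 50 bp, 9 of the 16 promoter peaks were left.

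All 6 starts lay in windows richer in CpG than the median promoter. In the 300 bases from 250 before to 50 after the start, Hes5 had 41 CpG, more than 96.5% of 32817 RefSeq promoters, Sox1 had 37 (more than 94.4%) and Zic1 had 31 (89.4%). Nes and the first Pax6 start each had 18 (70.3%), and Neurog2 had 10 (56.6%), against a median of 7. A second Pax6 start in RefSeq, 13567 bases into the gene, had 16, and no list held a peak in its window.

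Several motifs were searched in these windows on both strands, none of them overlapping another where they matched. The RBPJ motif GTGGGAA, which carries Notch signals to DNA, matched the Hes5 window at -83 to -77 from the start and, on the other strand, at -226 to -220. It was in 6.39% of all promoter windows and in none of the others here. Neither match lay in the 9 called bases. The SOX motif CATTGT, in 12.6% of windows, also matched Hes5 at -211 to -206 and at -172 to -167. The octamer ATGCAAAT, bound by POU factors, was in 1.74% of windows and matched Sox1 at bases 19 to 26 of the gene. The N-box CACNAG, a motif of Hes repressors, was in 42.5% of windows and matched Neurog2 and the second Pax6 start. TATAAA, in 13.6% of windows, matched none of them.

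Within 50 kb of the 6 genes the 8 lists held 235 peaks, which merged into 83 sites when peaks up to 100 bp apart were joined. Longer lists held more of them within each protocol, from 5 peaks in Omni-ATAC from 5000 cells to 82 in Omni-ATAC from 50000 cells. Omni-ATAC from 10000 cells, with 31207 peaks, held 23, fewer than the low-input lists of 27016 (25) and 29870 (27). Per 10000 peaks of a list it was 8.05 to 9.25 in the 5 low-input lists and 5.50 to 8.59 in the 3 of Omni-ATAC. Only 40 of the 83 sites had the gene in question as the nearest start, and 35 were in no list but the longest. List length differed with experiment and with cell number, and the part of list length in these counts was not tested.

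**Figure D3:**
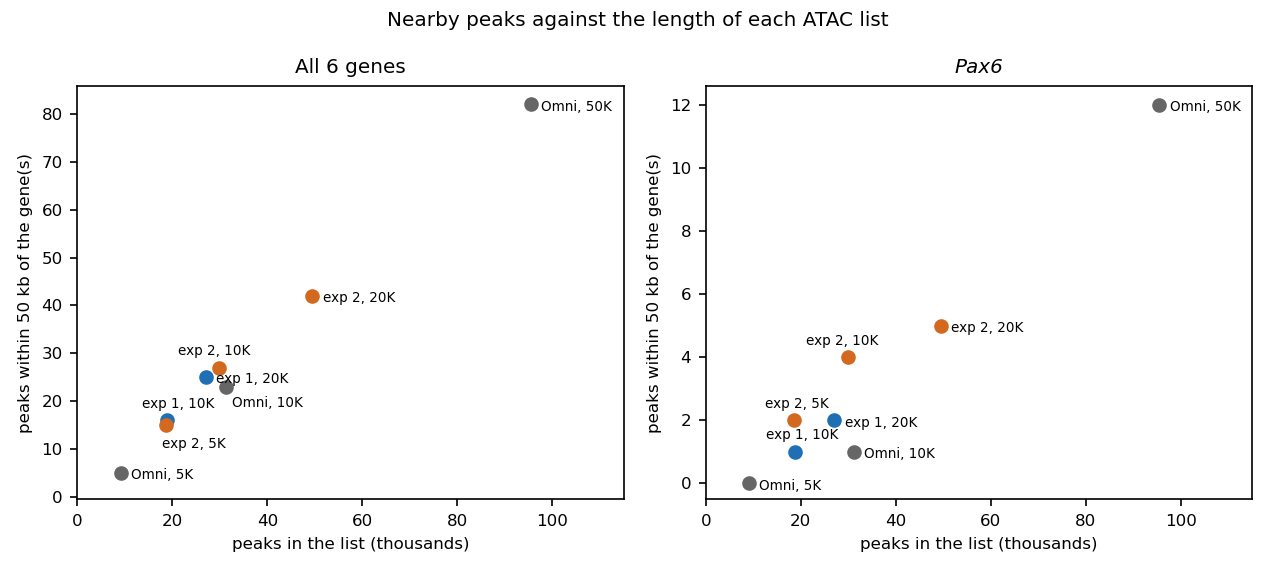
Peaks within 50 kb (y axis) of all 6 genes together (left) and of Pax6 (right), against the number of peaks in each of the 8 ATAC lists (x axis, in units of 1000). Each point is 1 list, blue for experiment 1, orange for experiment 2 and grey for Omni-ATAC; all 6 genes together had 16 and 15 peaks in the lists of 18877 and 18637 peaks, and Pax6 had 1 and 2.

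The Pax6 peaks of the low-input lists all lay inside the gene. A site 11502 to 11974 bases into it (chr2:105680398-105680870) was in 7 of 8 lists, both of experiment 1 included, and in all but Omni-ATAC from 5000 cells. That site lay upstream of the second RefSeq start, which is 13567 bases into the gene. A site at 8932 to 9111 bases was in 5 lists: all 3 of experiment 2, experiment 1 from 20000 cells and Omni-ATAC from 50000 cells. Sites at 6274 to 6468 and at 22369 to 22705 bases were in experiment 2 from 10000 and 20000 cells and in the longest Omni-ATAC list, and in neither list of experiment 1. At the first, the experiment 2 intervals were 9 bp each and did not overlap. Such sites, in experiment 2 but not 1, were 3 of 12 for Pax6, 7 of 21 for Sox1 and 5 of 13 for Hes5. They were 2 of 16 for Nes, 2 of 7 for Neurog2 and 1 of 14 for Zic1. The reverse held for 1 site of Sox1 and 0 of each other gene. In lists of like length, Pax6 had 1 peak of 18877 in experiment 1 from 10000 cells and 2 of 18637 in experiment 2 from 5000 cells. The next pair had 2 of 27016 in experiment 1 from 20000 cells and 4 of 29870 in experiment 2 from 10000 cells. None of these 9 peaks was as wide as 50 bp, and with 1 list each no test was made.

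Near Sox1 a site 43600 to 44096 bases past the start (chr8:12439119-12439615) was in all 8 lists. Sites at -3848 to -3621 and at 36073 to 36475 bases from it were in 7, and one at 25097 to 25340 bases was in 6. Sox1 was the nearest start for 16 of its 21 sites.

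Near Nes, besides the promoter, a site at -10441 to -9974 bases from the start (chr3:87960652-87961119) was in all 8 lists. A site inside the gene, 3295 to 3837 bases from the start (chr3:87974388-87974930), was in 7. Another in 7 lists, at 15934 to 16278 bases, had Bcan as its nearest start.

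Of the genes close to the detection limit, Neurog2 had peaks inside or past the gene in most lists. One site, at 871 to 1477 bases from its start (chr3:127634016-127634622), was in 7 of 8 lists, and another at 6795 to 7006 bases was in 6. Zic1 had no site in more than 4 lists, and that one lay inside the gene at 3690 to 3929 bases. Near Hes5, the site in all 8 lists lay at -16733 to -16366 bases from the start (chr4:154944190-154944557), where Tnfrsf14 was the nearest start. The site at -14441 to -14272, the next one toward Hes5, was in 6.

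**Figure D4:**
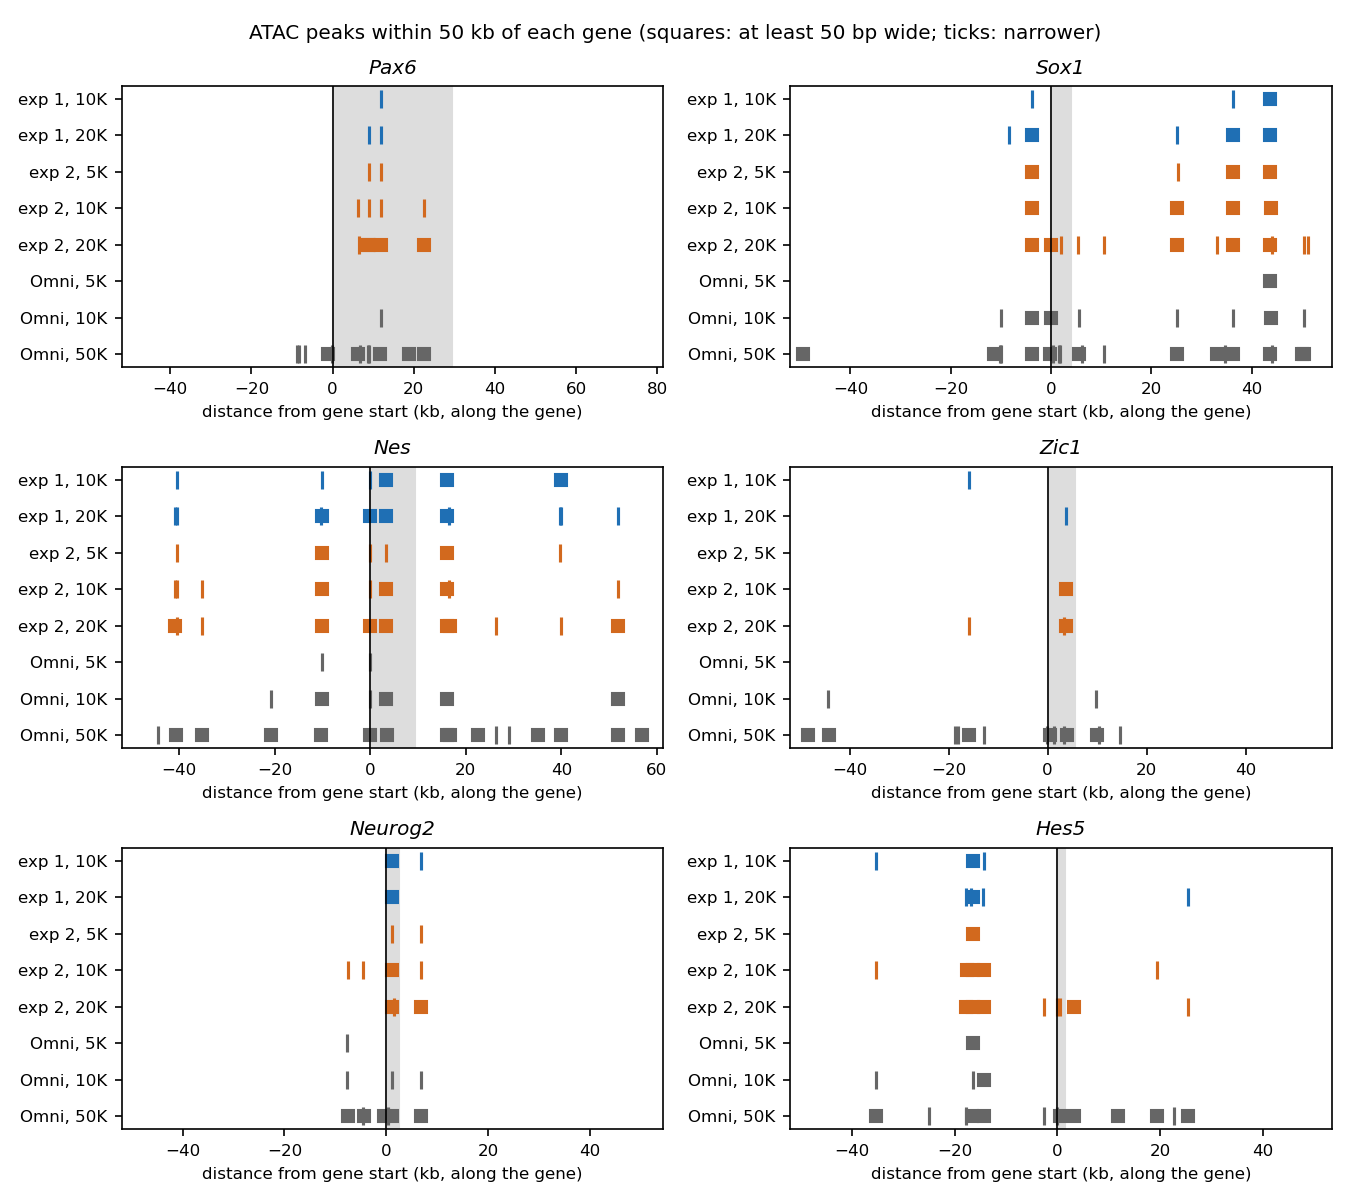
Peaks of the 8 ATAC lists (rows) within 50 kb of each gene, by distance from the gene's start (x axis, kb along the gene's direction; black line, start; grey, the gene). Squares are peaks of at least 50 bp and ticks narrower ones, drawn at their centres and not to width, blue for experiment 1, orange for experiment 2 and grey for Omni-ATAC. Nes has a peak at its start in every row, and Pax6 only in the last.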

How the data were processed

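Whole-number gene counts for 5 mRNA libraries, with mm10 coordinates, and peak intervals for 8 ATAC libraries were deposited by the authors. The submitters' processing notes name cutadapt, Bowtie2 2.1.0, STAR 2.5, featureCounts (Subread 1.5.0-p1), SAMtools 1.3.1, Picard, bedtools 2.24.0 and MACS2 2.1.1, with no settings. The peak threshold, strand use and the handling of multimapping reads are not given in the sources used here. Groups came from the sample titles.

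From the counts, CPM were computed here on library totals (13727122 to 20426252). Experiments and cell numbers were compared with edgeR 4.0.16 (TMM, filterByExpr, glmQLFit, glmQLFTest; R 4.3.3) on the 4 libraries from 10000 and 20000 cells, with Benjamini-Hochberg adjustment over all genes tested and a threshold of 0.05. The unreplicated 5000-cell library did not enter that fit. Experiment numbers mark a shared day, per the series' design text, and so pair libraries; experiment differences at 10000 and 20000 cells correlated with r = 0.536 over 12524 genes. On simulated counts the fit was tested: 34.5% of 2-fold (12495 genes tested) and 99.5% of 4-fold changes (12540 genes) between experiments were called, and 0% (12547 genes) and 58.2% (12530 genes) between cell numbers.

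A start is the 5′ end in the count table; 24467 of 24470 gene IDs matched RefSeq GRCm38.p6 and 67.0% of starts were equal. Python 3.11.15 was used. The 6 genes and all lists were chosen with earlier results of these data known. Named genes are the 6, up to 6 called genes per list and direction, the 2 most abundant of each list, and the 5 most like each gene that passed the filter; 1 abundant gene of a list is not reported here. All other named genes, such as Zic5, Sox21, Sox3, Hesx1, Otx2, Eomes and those named for 0 counts, were chosen after their values were seen. Alternatives were DESeq2 1.42.0, RLE size factors, no scaling beyond library size, no low-count filter, blocks, the 5000-cell library added, each replicate left out, other windows, a minimum width and other measures of likeness.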

Additional observations from a re-analysis of the deposited data

Results flagged for a closer look

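Sox1 and Nes moved in opposite directions with cell number in the 2 experiments. On the log2(CPM + 1) scale, Sox1 from 20000 cells differed from 10000 cells by -0.35 in experiment 1 and by 0.2 in experiment 2. Nes differed by 1.04 in experiment 1 and by -0.15 in experiment 2. The 95% Wilson intervals of the libraries compared overlapped for Sox1 in both experiments and for Nes in experiment 2. Only for Nes in experiment 1 were they apart (0.773 to 1.98 CPM from 10000 cells, 2.77 to 4.71 CPM from 20000 cells). Each value rests on 1 library against 1, and the difference between the experiments was not tested.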

How the results depend on the processing

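Leaving out 1 library at a time, the genes called between experiments numbered 803 to 1815 (main value 1567; the 803 without experiment 2 from 10000 cells, 869 without experiment 2 from 20000 cells, 1018 without experiment 1 from 10000 cells), and those of the 6 lists 6 to 14. The log2 difference between experiments ran from 5.11 to 9.47 for Pax6, from 0.36 to 0.85 for Sox1 and from 0.10 to 1.66 for Nes, the last rising without experiment 1 from 20000 cells and falling without experiment 1 from 10000 cells. Between cell numbers it ran from -8.73 to 3.56 for Pax6, from -0.62 to 0.34 for Sox1 (0.07 without experiment 2 from 10000 cells) and from -0.20 to 1.54 for Nes. With the experiment as replicate block 4 genes were called between cell numbers, and with no filter 2; Pax6, Sox1 and Nes stayed uncalled there. With cell number as a block 1765 genes were called between experiments, 824 higher and 941 lower. For the 14 called genes of the lists, 30 of 140 alternative values lost the call and 0 changed sign; with the library from 5000 cells added, Zic2, Notch4, Adam10 and Ncam1 were lost. Peaks of at least 50 bp left 9 promoter and 114 nearby peaks; within 10000 bp there were 124 nearby peaks and within 100000 bp 399. The 5 genes most like each member shared 0 with those by Spearman's rho, and 0 for Pax6, 3 for Sox1 and 3 for Nes with a pseudocount of 0.1. No depth is known for the ATAC lists. The cause of these changes was not tested.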
